A study of Mus musculus with 6 samples.

Results

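The genes described here are 10 genes of the unfolded protein response and of protein folding in the endoplasmic reticulum (ER), Xbp1, Atf6, Ern1, Hspa5, Hsp90b1, Calr, Pdia4, Sdf2l1, Dnajb9 and Herpud1. They were taken by gene symbol from a table of 24422 genes, and all 10 were found in it. The 10 genes were chosen with earlier results of these data known, so they are not a blind choice. The table held raw read counts from poly-A RNA of 6 whole mouse kidneys at postnatal day 13, 3 Control and 3 TfR1 knockout. All mice were C57BL/6 and received an iron-sufficient diet of 220 ppm. The Control kidneys were wild type littermates, and the knockout kidneys carried the genotype Tfr1f/f;SixCre, in which Six2Cre, active in nephron progenitors, removes floxed exons of Tfrc, the gene for transferrin receptor 1, which brings transferrin-bound iron into cells. The Control label gives only wild type, and the study also uses that word for littermates with floxed alleles and no Cre, so whether the Control kidneys carried the floxed alleles is not clear from it. Stroma, endothelium, blood cells and the collecting duct lie outside the Six2 lineage. For the ureteric bud and its collecting ducts the study used another driver, Hoxb7Cre. The study also describes tubule cells that escaped deletion.

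Proteins made for secretion or for membranes fold in the ER with the help of chaperones, of which Hspa5 (BiP, or GRP78) is the best known. When unfolded protein builds up, 3 sensors in the ER membrane respond. IRE1, the product of Ern1, cuts Xbp1 mRNA so that an active transcription factor is made, ATF6 moves to the Golgi where proteases release its active part, and PERK (Eif2ak3) phosphorylates eIF2alpha, which slows translation in general while favouring that of Atf4. In secretory and transporting epithelia such as the kidney tubule, XBP1 and ATF6 raise transcription of chaperone and degradation genes.

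Total counts per library ran from 16591156 to 22898008, and single counts of the 10 genes from 86 to 21195. Together the 10 genes took 0.234% to 0.324% of the counts in the Control libraries and 0.214% to 0.283% in the knockout libraries. Tfrc itself did not separate the groups (log2 fold change 0.11, SE 0.29, DESeq2 adjusted p = 0.853), so the group labels are not checked by it. Control 3 stood apart among the Control libraries: its summed normalised counts of 8 proximal tubule markers were 136540 against 279982 and 311935 in Control 1 and 2, and those of 6 stromal markers were 137196 against 69466 and 66894. Over fixed marker lists, 5 of 7 macrophage markers were called higher in the knockout kidneys, and 4 of 5 thick ascending limb markers and 3 of 3 distal convoluted tubule markers were called lower (DESeq2). Of the 8 proximal tubule markers, 1 was called higher (Slc22a6) and 3 lower (Slc5a2, Kap and Lrp2). Their summed normalised counts were 142635, 182985 and 114101 in knockout 1, 2 and 3, and the sum of Control 3 lay within this range. The shares of all tested genes were 7.74% called higher and 7.18% called lower. In bulk RNA, fewer cells of a type and less RNA per cell cannot be told apart, and this holds for each value below.

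Of the 10 genes, 3 rose in the TfR1 knockout kidneys: Ern1, Dnajb9 and Herpud1, by about 2-fold each. The abundant chaperones Hspa5, Hsp90b1, Calr and Pdia4 had lower means in the knockout kidneys, but none of these differences passed the test. A gene was called at a Benjamini-Hochberg adjusted p under 0.05 in DESeq2's Wald test over all genes, where 7.74% of 16509 tested genes were called higher and 7.18% lower. All 10 genes passed the filter on low counts. No member was called lower. At an unadjusted p under 0.05, DESeq2 gave 4 genes higher (Atf6 besides the 3 named) and 1 lower (Hsp90b1), beside 13.8% and 13.5% of all tested genes. With a fold change of at least 2 added, 2 of the 10 were called higher, Ern1 and Herpud1, and 0 lower, beside 4.41% and 4.46% of all tested genes. edgeR's quasi-likelihood test called 1 of the 10, Dnajb9, higher and 0 lower, where it called 3.22% of 15308 genes higher and 2.8% lower. limma with voom called 0 of the 10 in either direction, beside 3.17% of the genes higher and 2.98% lower. The median log2 fold change of the 10 genes was -0.096, beside 0.0071 over all tested genes. Under total-count scaling, which moved the median of all genes by -0.10, the calls over all genes were 996 higher and 1407 lower, against 1277 and 1186 here.

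**Figure D1:**
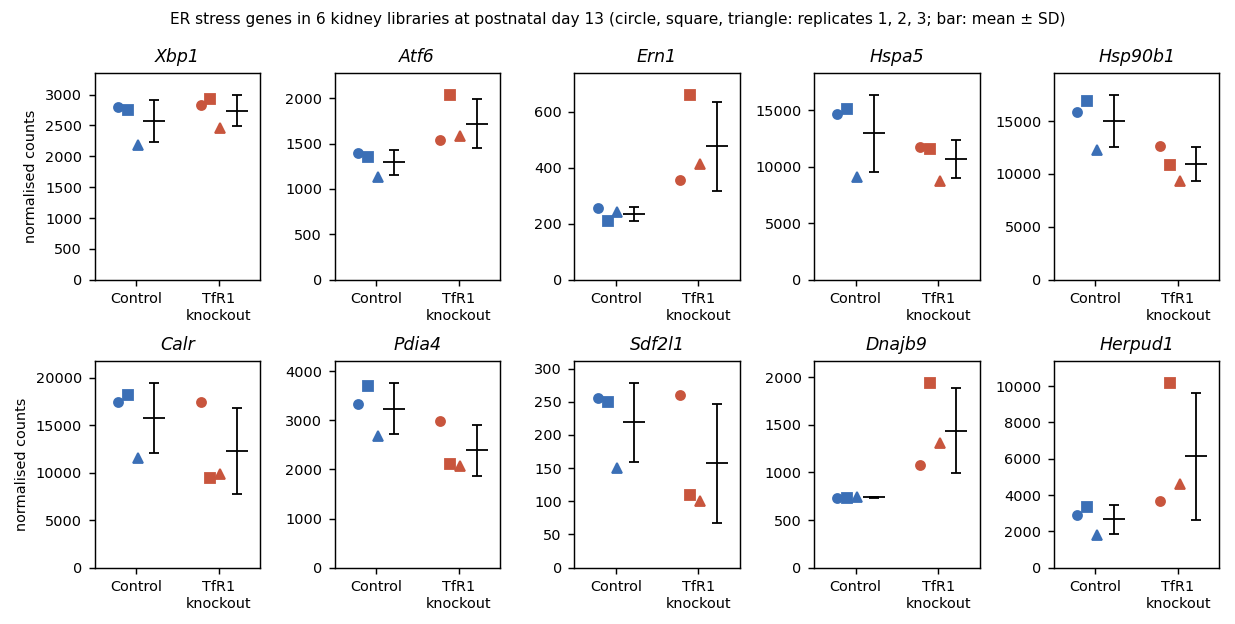
Normalised counts of the 10 genes in each of the 6 libraries, 1 panel per gene, with circle, square and triangle for replicates 1, 2 and 3 and bars for the group mean and SD (n = 3 each). The 3 knockout points lie above all Control points for Atf6, Ern1, Dnajb9 and Herpud1, and the groups overlap for the other 6 genes.

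The promoter sequences of 4 genes are shown first, because they hold letters that match known binding motifs of this response. The exact matches of Herpud1 also differ from those of the 3 chaperones. The ER stress response element (ERSE) is bound by ATF6 or XBP1 beside NF-Y, and was searched as CCAAT followed by any 9 bases and CCACG. ERSE-II, searched as ATTGG, any 1 base and CCACG, is bound by the same factors. The C/EBP-ATF element, searched as TTGCATCA, is bound by ATF4 with a C/EBP protein such as CHOP, the product of Ddit3, and the UPR element (UPRE), searched as TGACGTGG, is bound by XBP1. Both strands were searched in RefSeq windows of the GRCm38.p6 build that run from 250 bases before to 50 bases after each transcription start, which were found for 9 of the 10 genes, Atf6 being the exception. The sequences below are stretches of those windows in the direction of the gene, with each match in capitals.
Hspa5, chr2:34771940-34772089, plus strand: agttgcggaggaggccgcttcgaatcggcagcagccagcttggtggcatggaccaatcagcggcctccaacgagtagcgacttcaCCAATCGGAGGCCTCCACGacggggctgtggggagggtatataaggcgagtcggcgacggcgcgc
Hsp90b1, chr10:86705525-86705674, minus strand: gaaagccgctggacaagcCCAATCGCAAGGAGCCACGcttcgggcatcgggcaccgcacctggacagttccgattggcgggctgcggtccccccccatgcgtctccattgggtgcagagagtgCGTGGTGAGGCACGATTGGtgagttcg
Calr, chr8:84847032-84847131, minus strand: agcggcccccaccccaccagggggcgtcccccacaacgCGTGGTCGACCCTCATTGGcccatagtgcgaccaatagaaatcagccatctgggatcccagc
Herpud1, chr8:94386279-94386428, plus strand: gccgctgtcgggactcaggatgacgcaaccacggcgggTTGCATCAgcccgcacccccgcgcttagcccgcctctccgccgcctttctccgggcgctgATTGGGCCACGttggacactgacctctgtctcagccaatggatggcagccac

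In these windows Hspa5 held 1 ERSE match, beginning 65 bases before the start. Hsp90b1 held 2, beginning 212 and 107 bases before the start, the second on the opposite strand. Calr held 1, on the opposite strand, beginning 162 bases before the start. Herpud1 held no ERSE but a C/EBP-ATF match 112 bases and an ERSE-II match 52 bases before the start, both on the gene's strand. No match to any of the 4 motifs was found in the windows of Xbp1, Ern1, Dnajb9, Pdia4 or Sdf2l1, which says only that these letters are not in those windows. The motifs are rare among all 32851 windows of this length: ERSE was in 0.119%, ERSE-II in 0.0365%, UPRE in 0.676% and C/EBP-ATF in 0.895%. A match is a description of letters and not a measured binding site.

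**Figure D2:**
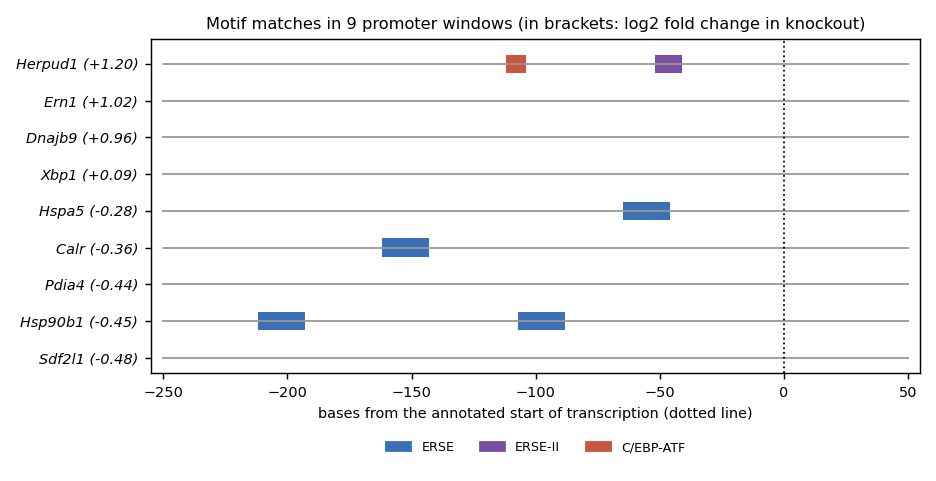
Motif matches in the 300-base windows of the 9 genes with a window, plotted as distance in bases from the transcription start, with boxes coloured by motif and drawn to length, and the gene's log2 fold change in brackets. ERSE matches are in Hspa5, Hsp90b1 and Calr, and Herpud1 holds a C/EBP-ATF and an ERSE-II match.

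Among the sensors and transcription factors, Ern1 rose and Xbp1 did not pass the test. Ern1 (chromosome 11, 106255964 to 106349166, minus strand, mm9, 22 exons in its longest transcript) encodes IRE1, a kinase and ribonuclease. Its normalised counts were 255, 208 and 241 in the Control kidneys and 357, 659 and 413 in the knockout kidneys. Every knockout library lay above every Control library, with knockout 2 highest. The fold change was 2.03 (log2 fold change 1.02, SE 0.29, 95% interval 0.46 to 1.58, DESeq2 adjusted p = 0.00527). edgeR gave nearly the same log2 fold change, 1.00, with an adjusted p of 0.0607, so the call rests on the tool, and it was also lost without Control 2 (DESeq2 adjusted p = 0.0757).

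Xbp1 (chromosome 11, 5420662 to 5425896, plus strand) encodes the transcription factor whose mRNA IRE1 cuts. It had 2795, 2752 and 2175 normalised counts in the Control kidneys and 2834, 2926 and 2457 in the knockout kidneys. The groups overlapped, and the difference was small beside its error (log2 fold change 0.09, SE 0.18, 95% interval -0.26 to 0.44, DESeq2 adjusted p = 0.797). Its sign turned when libraries were scaled by total count (-0.017) and when Control 3 was left out (-0.021). Counts per gene do not separate the cut from the uncut mRNA, so the activity of IRE1 on Xbp1 was not measured here.

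Atf6 (chromosome 1, 172634588 to 172797902, minus strand, 16 exons) encodes the sensor that is itself a transcription factor precursor. It had 1391, 1356 and 1136 normalised counts in the Control kidneys and 1541, 2030 and 1585 in the knockout kidneys. All knockout libraries were above all Control libraries, but the difference did not pass this test (log2 fold change 0.41, SE 0.19, 95% interval 0.031 to 0.79, DESeq2 adjusted p = 0.142; edgeR adjusted p = 0.160).

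Dnajb9 (chromosome 12, 45306884 to 45311055, minus strand, 3 exons) encodes ERdj4, a DnaJ co-chaperone of BiP that helps to send misfolded proteins to degradation and holds IRE1 inactive. Its normalised counts were 736, 732 and 744 in the Control kidneys and 1074, 1936 and 1304 in the knockout kidneys. The Control values were nearly equal, with an SD of 6.11 around a mean of 737, while the knockout values had an SD of 446 around a mean of 1438. The fold change was 1.95 (log2 fold change 0.96, SE 0.25, 95% interval 0.47 to 1.46, DESeq2 adjusted p = 0.00237). Dnajb9 was called by both DESeq2 and edgeR (edgeR adjusted p = 0.0452) and kept its call without each library in turn, but limma with voom placed it just past the threshold at an adjusted p of 0.0506.

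Herpud1 (chromosome 8, 96910338 to 96919277, plus strand) encodes a membrane protein of ER-associated degradation, which carries misfolded proteins out of the ER to the proteasome. It had 2907, 3335 and 1786 normalised counts in the Control kidneys and 3673, 10148 and 4597 in the knockout kidneys. The groups did not overlap, and knockout 2 lay far above the other 2 knockout libraries. The fold change was 2.29 (log2 fold change 1.20, SE 0.41, 95% interval 0.40 to 1.99, DESeq2 adjusted p = 0.0264; edgeR adjusted p = 0.124). Without knockout 2 the log2 fold change was 0.63 and the call was lost (DESeq2 adjusted p = 0.189), as it was without Control 1 (adjusted p = 0.0833) and without Control 3 (adjusted p = 0.105). Knockout 2 also had the highest summed level of 6 collecting duct markers, 62312 normalised counts against 29757 and 35718 in knockout 1 and 3 and 10459.5 to 19368 in the Control kidneys. Most of that sum was Aqp2, at 50719 in knockout 2. Of the 6 markers, 2 were called higher (Aqp2 and Aqp3) and 2 lower (Atp6v1b1 and Slc4a1), and Scnn1g, Slc4a1 and Foxi1 had their lowest knockout values in knockout 2, at 971, 180.4 and 696. The part of the collecting duct in the value of Herpud1 was not tested.

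Ern1, Dnajb9, Herpud1 and Atf6 were thus the 4 genes of the 10 whose normalised counts in all knockout libraries exceeded those in all Control libraries, and 0 genes had the reverse order. Over all tested genes, 16.9% had the groups apart with the knockout higher and 16.9% with the knockout lower.

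Hspa5 (chromosome 2, 34627490 to 34632051, plus strand, 8 exons) encodes BiP, the Hsp70 chaperone of the ER and the usual marker of this response. It had 14636, 15136 and 9063 normalised counts in the Control kidneys and 11733, 11542 and 8701 in the knockout kidneys. All 3 knockout values were below the Control mean of 12945 ± 3371 (SD, n = 3), but Control 3 lay within the range of the knockout values. The difference did not pass this test (log2 fold change -0.28, SE 0.26, 95% interval -0.78 to 0.22, DESeq2 adjusted p = 0.508). An increase of Hspa5 by more than 0.22 on the log2 scale lies outside this interval.

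Hsp90b1 (chromosome 10, 86152954 to 86168254, minus strand, 13 exons) encodes GRP94, the Hsp90 chaperone of the ER. It had 15824, 16913 and 12243 normalised counts in the Control kidneys and 12629, 10881 and 9350 in the knockout kidneys. Knockout 1 lay just above Control 3, and the other 2 knockout libraries lay below all Control libraries. The log2 fold change was -0.45 (SE 0.21, 95% interval -0.86 to -0.048, DESeq2 adjusted p = 0.127), and it was called without Control 3 (-0.58, adjusted p = 0.0229) and under total-count scaling (-0.55, adjusted p = 0.0410). Its exons share 415 bases with 1810014B01Rik on the opposite strand, and 133 bases with AC152453.1 and 84 with Gm15344 on the same strand. Whether counting used the strand is not given in the sources used here, so how reads from these shared stretches were counted is not known.

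Calr (chromosome 8, 87365749 to 87370833, minus strand, 9 exons) encodes calreticulin, a calcium-binding chaperone of glycoproteins. It had 17476, 18221 and 11548 normalised counts in the Control kidneys and 17452, 9418 and 9870 in the knockout kidneys. Knockout 1 was at the level of Control 1, while knockout 2 and 3 were below all Control libraries. The difference did not pass this test (log2 fold change -0.36, SE 0.31, 95% interval -0.97 to 0.24, DESeq2 adjusted p = 0.471).

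Pdia4 (chromosome 6, 47746141 to 47763511, minus strand, 10 exons) encodes ERp72, a protein disulfide isomerase. It had 3333, 3692 and 2670 normalised counts in the Control kidneys and 2977, 2115 and 2068 in the knockout kidneys. The groups overlapped through knockout 1 (log2 fold change -0.44, SE 0.23, 95% interval -0.89 to 0.011, DESeq2 adjusted p = 0.196). Sdf2l1 (chromosome 16, 17130231 to 17132476, minus strand, 3 exons) encodes a small ER protein that works with the DnaJ proteins of BiP. It had 256, 249.96 and 151 normalised counts in the Control kidneys and 261, 110.0 and 100.3 in the knockout kidneys. Knockout 1 was the highest of all 6 libraries while knockout 2 and 3 were the lowest (log2 fold change -0.48, SE 0.43, 95% interval -1.32 to 0.36, DESeq2 adjusted p = 0.501). Without knockout 1, Calr (-0.71, adjusted p = 0.0354), Pdia4 (-0.63, adjusted p = 0.0240) and Sdf2l1 (-1.06, adjusted p = 0.0166) were called lower, so this library decides these 3 results.

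**Figure D3:**
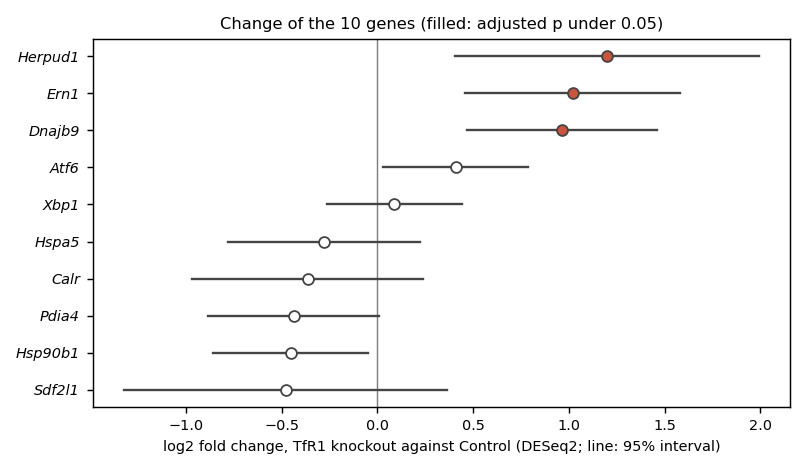
Log2 fold change of the 10 genes, TfR1 knockout against Control, from DESeq2, with points for the estimate, filled where adjusted p is under 0.05, and lines for the 95% interval. Herpud1, Ern1 and Dnajb9 lie above 0 with adjusted p under 0.05, and the estimates for Hspa5, Hsp90b1, Calr, Pdia4 and Sdf2l1 lie below 0 without passing the test.

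The libraries did not rank alike over the 10 genes. Control 3 was the lowest Control library for 8 of them, all but Ern1 and Dnajb9. Knockout 2 was the highest of all 6 libraries for Xbp1, Atf6, Ern1, Dnajb9 and Herpud1. Knockout 1 was the highest knockout library for the other 5 genes, which are the 5 with a lower knockout mean. The lower proximal tubule and higher stromal marker sums of Control 3 stand beside its low values of the 8 genes, and the part of tissue composition in them was not tested.

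Set against Hspa5 in the same library, a ratio that no library scaling changes, Herpud1 was 19.9%, 22% and 19.7% of the Hspa5 count in the Control kidneys and 31.3%, 87.9% and 52.8% in the knockout kidneys. Dnajb9 was 5.03%, 4.83% and 8.21% of it in the Control kidneys and 9.15%, 16.8% and 15.0% in the knockout kidneys. Ern1 was 1.74%, 1.38% and 2.66% in the Control kidneys and 3.04%, 5.71% and 4.75% in the knockout kidneys. Atf6 was 8.96% to 12.5% and 13.1% to 18.2%, and Xbp1 18.2% to 24.0% and 24.2% to 28.2%. These 5 of 9 ratios were higher in every knockout library than in every Control library, narrowly so for Xbp1, whose own groups overlapped, and Hspa5 itself had the lower mean in the knockout kidneys. Over all tested genes, 15.3% of ratios to Hspa5 had the groups apart with the knockout higher and 6.45% with it lower. Hsp90b1 was 108% to 135% of the Hspa5 count in the Control kidneys and 94.3% to 108% in the knockout kidneys, lower in every knockout library although Control 1 and knockout 1 were nearly equal, and Calr was 119% to 127% and 81.6% to 149%. Pdia4 was 22.8% to 29.5% in the Control and 18.3% to 25.4% in the knockout kidneys, and Sdf2l1 was 1.65% to 1.75% and 0.953% to 2.22%. The groups overlapped for Calr, Pdia4 and Sdf2l1.

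Per length, in normalised counts per kb of annotated exons, Calr, Hsp90b1 and Hspa5 were the most abundant of the 10 genes in the Control kidneys and the sensor gene Ern1 the least. The level of Calr was 5468 ± 1270 (SD, n = 3 here and below), that of Hsp90b1 3719 ± 606 and that of Hspa5 3685 ± 960. Hsp90b1 and Hspa5 did not differ beyond their spread. The level of Pdia4 was 1303 ± 209, that of Herpud1 1147 ± 343, and these did not differ beyond their spread either. Within each Control library, however, Pdia4 lay above Herpud1. The level of Xbp1 was 793 ± 107 and that of Dnajb9 395 ± 3.28. The lowest levels were those of Sdf2l1 (197 ± 53.3), Atf6 (173 ± 18.6) and Ern1 (28.7 ± 2.93), of which Sdf2l1 and Atf6 did not differ beyond their spread. In the knockout kidneys the level of Herpud1 was 2632 ± 1501 and that of Pdia4 962 ± 206. These spreads overlapped as well, with Herpud1 above Pdia4 in each knockout library. The order of these genes in the Control kidneys depends on the length used: over the longest transcript, Herpud1 was at 1371 and Pdia4 at 1303.

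The genes most like Hspa5 over the 6 libraries were sought among 12113 genes with a mean of at least 100 normalised counts, by the root mean square difference of centred log2 values. The 8 nearest were Prss8 (0.0638), Qdpr (0.0659), Mut (0.0672), Cyba (0.0720), Rgs6 (0.0728), Ush1c (0.0753), Xpnpep1 (0.0757) and Ndufab1 (0.0763), and none of the 10 genes was among them. The nearest of the 10 was Hsp90b1, at 0.153 and rank 139, followed by Pdia4 at rank 492, Xbp1 at rank 752 and Calr at rank 1485. Atf6 at rank 5905 and Sdf2l1 at rank 6192 lay further away. Herpud1, at 0.806 and rank 11233, Ern1 at rank 10911 and Dnajb9 at rank 10696 were among the genes least like Hspa5. This distance includes the difference between the groups, so it is not separate from the fold changes above.

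Of 32 other ER chaperones and folding enzymes, 31 were tested, of which 1 rose (3.23%) and 4 fell (12.9%) in DESeq2, beside 7.74% and 7.18% of all tested genes, with a median log2 fold change of -0.045. The gene that rose was Ero1l, the oxidase that passes electrons from protein disulfide isomerase to oxygen. It had 1525, 1515 and 1189 normalised counts in the Control kidneys and 6650, 4895 and 5094 in the knockout kidneys (log2 fold change 1.98, SE 0.20, adjusted p = 2.42e-19), and edgeR also called it (adjusted p = 0.00352). The 4 that fell were the prolyl isomerase Fkbp11 (-1.20), the disulfide isomerases Pdia5 (-0.91) and Txndc5 (-0.47), and Cnpy2 (-0.67), with DESeq2 adjusted p from 0.0115 to 0.0463. edgeR called none of these 4, with adjusted p from 0.0836 to 0.125. Hyou1, the nucleotide exchange factor of BiP, and the lectin chaperone Canx did not pass the test. Hyou1 had 2580 ± 857 normalised counts in the Control and 3131 ± 264 in the knockout kidneys, and Canx 10784 ± 1535 and 11270 ± 811.

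Of 26 other genes of ER-associated degradation, 0 were called by DESeq2, edgeR or voom. At an unadjusted p under 0.05, DESeq2 gave 2 higher, Aup1 and Herpud2, and 1 lower, Ubac2, beside 13.8% and 13.5% of all tested genes. The ubiquitin ligase Syvn1 (Hrd1), with which the Herpud1 protein works, had 940 ± 242 normalised counts in the Control kidneys and 898 ± 27.1 in the knockout kidneys. Of 23 genes for translocation into the ER and signal peptide processing, 0 were likewise called by the 3 tools, with 0 higher and 2 lower (Sec61b and Srp14) at an unadjusted p under 0.05 in DESeq2, to be read against the same shares. The median log2 fold changes of these lists were 0.067 and 0.013.

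Of 10 other sensors, ER transcription factors and their proteases, 9 were tested. Mbtps2, the protease that makes the second cut in ATF6, rose from 512 ± 37.5 to 769 ± 94.2 normalised counts, a log2 fold change of 0.59 (SE 0.18, DESeq2 adjusted p = 0.0122; edgeR adjusted p = 0.0662). Creb3l1, a membrane-bound relative of ATF6, fell from 620 ± 124 to 259 ± 79.9, a log2 fold change of -1.25 (SE 0.30, DESeq2 adjusted p = 6.29e-04; edgeR adjusted p = 0.0425). Eif2ak3, which encodes PERK, had 868 ± 92.5 and 907 ± 32.3 normalised counts, a difference that did not pass the test (adjusted p = 0.849).

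PERK acts through phosphorylation of eIF2alpha, which other kinases also phosphorylate. All 7 of the listed outputs of this branch, Atf4, Ddit3, Trib3, Ppp1r15a, Chac1, Sesn2 and Asns, rose by DESeq2, edgeR and voom. Those tools called 7.74%, 3.22% and 3.17% of all tested genes higher. In DESeq2, 6 of the 7 rose by at least 2-fold, beside 4.41% of all tested genes, and the median log2 fold change of the 7 was 2.15. The largest change was that of the pseudokinase gene Trib3, from 40.9 ± 8.86 to 842 ± 227 normalised counts, a log2 fold change of 4.37 (SE 0.30, DESeq2 adjusted p = 7.54e-45). Ddit3, which encodes CHOP, rose from 277 ± 34.7 to 1276 ± 46.9, a log2 fold change of 2.20 (SE 0.17, DESeq2 adjusted p = 6.33e-34). Atf4, which is controlled mainly at translation, had the smallest change of the 7 (log2 fold change 0.60, DESeq2 adjusted p = 4.35e-04). This list was put together with earlier results of these data known, and its count is not independent evidence of its direction.

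**Figure D4:**
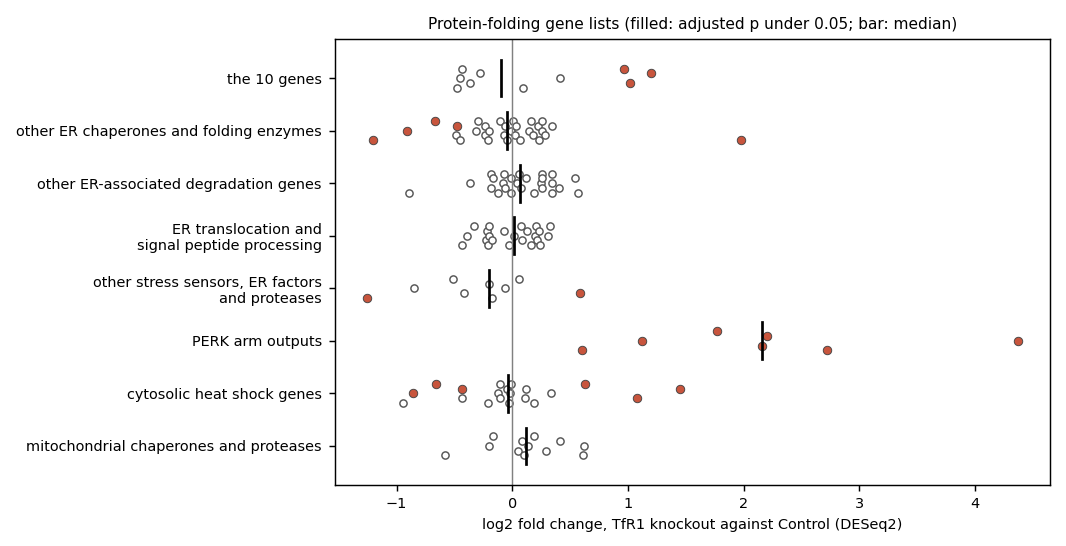
Log2 fold change, TfR1 knockout against Control (DESeq2), of each tested gene in the 10 genes and in 7 other lists of folding and stress genes, 1 row per list, with points for genes and a bar for the list's median. Filled points have an adjusted p under 0.05. The 7 eIF2alpha branch outputs (PERK arm outputs in the plot) lie between 0.60 and 4.37, while the lists of ER chaperones, degradation and translocation genes have medians between -0.045 and 0.067.

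Other compartments were set beside the ER. Of 20 cytosolic heat shock genes, 3 rose and 3 fell in DESeq2, 15% each, beside 7.74% and 7.18% of all tested genes. As log2 fold change, Hspb8 (1.45), Hspb1 (1.08) and Hsp90ab1 (0.62) rose. Cryab (-0.86), Chordc1 (-0.66) and Dnaja1 (-0.44) fell, and the median of the list was -0.038. edgeR called 1 of these 6, Hspb8. Of 12 mitochondrial chaperones and proteases, 0 were called by DESeq2, edgeR or voom, with 2 higher (Hspa9 and Lonp1) and 0 lower at an unadjusted p under 0.05 in DESeq2, where 13.8% and 13.5% of all tested genes lay, and the median log2 fold change was 0.12.

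Across all genes with a promoter window, the shares called were 7.77% higher and 7.1% lower of 12375 tested genes (DESeq2). Of 20 tested genes with an ERSE match, 1 was called higher and 1 lower, neither of them an ER chaperone (Acnat2 and Spats2l), and the median log2 fold change was -0.24. Besides Hspa5, Hsp90b1 and Calr, the ERSE was found in 4 of 24 other ER chaperone genes with a window, Canx, Creld2, Dnajc3 and Pdia6, and in the degradation genes Derl3 and Syvn1. Of 8 tested genes with an ERSE-II match, Herpud1 was the only one called. Of 95 tested genes with a C/EBP-ATF match, Herpud1 among them, 17 were called higher (17.9%) and 8 lower (8.42%), with a median log2 fold change of 0.23. Of 130 tested genes with a UPRE match, 5 were called higher (3.85%) and 8 lower (6.15%). These counts were not tested against each other or against all genes.

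Cells with a large secretory load could add ER transcripts to a whole kidney. Of 9 plasma cell and B cell markers, 8 were tested, and 0 were called higher and 1 lower (DESeq2), beside 7.74% and 7.18% of all tested genes. The summed normalised counts of these markers were 167 to 212 in the Control kidneys and 133 to 196 in the knockout kidneys. At an unadjusted p under 0.05, DESeq2 gave 1 of them higher (Mzb1), and edgeR and voom called 0 in either direction. Mzb1, which encodes an ER protein of B cells, had 118 of the 196 summed counts in knockout 2 and 5.38 to 35.9 normalised counts in the other libraries, and knockout 2 was at 0 for Ms4a1, the marker called lower. The part of such cells in the changes of the 10 genes was not tested. The macrophage marker sum was 2257 to 3556 in the Control kidneys and 5275 to 7944 in the knockout kidneys, highest in knockout 1, whereas Ern1, Dnajb9 and Herpud1 were highest in knockout 2. The part of macrophages in the changes of these 3 genes was not tested.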

How the data were processed

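The deposited values are raw read counts per gene, which the authors made from 100-base single-end reads of poly-A libraries (3 Control and 3 TfR1 knockout kidneys, described as biological replicates) by CASAVA 1.8.2, Trimmomatic, TopHat2 2.0.11 against mm9 and HTSeq, keeping uniquely mapped reads. The annotation version and the strand setting are not given in the sources used here. Groups and replicate numbers came from the sample titles.

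DESeq2 1.42.0 in R 4.3.3, the tool the study names, was fitted to all genes of the 6 libraries with no covariates. Normalised counts are counts divided by median-ratio size factors. Genes under a mean of 3.51 normalised counts were left out by independent filtering, and 29 genes had no p-value because of Cook's distance. The call was an adjusted p under 0.05. SE and 95% intervals are those of the unshrunken log2 fold change. Alternatives were edgeR 4.0.16, limma 3.58.1 with voom, other scalings, filters and left-out libraries. The steps were tested on simulated data. Depth is given with the results. Each SD is the spread between the kidneys of a group, while each SE comes from the DESeq2 fit to both groups together.

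Named genes were all 10 members, Tfrc, up to 4 called genes of each list with the largest change at a mean of at least 100 normalised counts, every gene behind a count of 5 or fewer, and the 8 genes most like Hspa5. Hyou1, Canx, Syvn1, Eif2ak3 and Atf4, the named marker genes, and the list genes at an unadjusted p under 0.05, were named beside these after their values were seen. The members and lists were chosen with earlier results of these data known. All 201 list genes matched a symbol. Gene positions and exon lengths are from GENCODE vM1 on mm9, while promoter sequences and their coordinates are from RefSeq on GRCm38.p6, and the builds were not mixed. The values of 1 plasma cell and B cell marker are not reported here.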

Additional observations from a re-analysis of the deposited data

How the results depend on the processing

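With 3 kidneys a group and a spread between libraries as wide as that of Herpud1 or Sdf2l1, the calls of the 10 genes near the threshold depend on the test and on single libraries. Of their 140 results under 14 alternatives, 124 kept direction and call, 9 lost a call, 5 gained one and 2 reversed. The calls lost were those of Ern1 (edgeR; voom, adjusted p = 0.0747; without Control 2), Dnajb9 (voom) and Herpud1 (edgeR; voom, adjusted p = 0.129; without Control 1, Control 3 or knockout 2). The log2 fold change of Xbp1 reversed under total-count scaling (-0.017) and without Control 3, and ran from -0.021 to 0.17 with 1 library left out. That of Tfrc reversed without Control 3 and without knockout 1 (-0.072) and ran from -0.095 to 0.30. The causes were not tested.

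Of the 10 genes, 1 was called higher by edgeR and 0 by voom, and 2 at 2-fold or more. With 1 library left out, 2 to 3 were called higher and 0 to 3 lower, 3 being without knockout 1, and 1 was called lower under total-count scaling. Over all genes, 493 were higher and 428 lower with edgeR, 485 and 456 with voom, and 728 and 736 at 2-fold or more. With 1 library left out, 664 to 1531 were higher and 575 to 1674 lower, both lowest without Control 1 and highest without knockout 1. Of the other ER pathway genes (folding, degradation, translocation, sensors and eIF2alpha outputs), 9 were called higher and 5 lower in the main test. edgeR and voom each called 8 higher and 1 lower, total-count and upper-quartile scaling 9 and 7, and the 2-fold rule 7 and 2. Leaving out 1 library gave 7 to 10 higher and 1 to 7 lower.

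Levels per kb in the Control kidneys moved beyond 1 SD over the longest transcript, to 1209 for Xbp1, 33.8 for Ern1, 4954 for Hspa5, 4653 for Hsp90b1 and 7211 for Calr, and with scaling by library total to 415 for Dnajb9. Same-numbered kidneys share only a number (correlations of their deviations -0.0378, 0.0548 and 0.0899). With a replicate block, 1085 genes were called higher and 1087 lower, 3 and 0 of the 10 genes, and 8 and 4 of the other ER pathway genes. Among the other named genes, 217 of 280 results kept their call and 63 lost it. Ero1l, Creb3l1, Ddit3 and Trib3 kept theirs under all 14 alternatives, Pdia5 under 5, Txndc5, Cnpy2 and Mbtps2 under 7, Fkbp11 under 8, and Atf4 lost its call only without Control 1 (adjusted p = 0.0627).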
